A study of Mus musculus with 3 samples.

Results

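STAT5A peaks were described at 5 loci that carry genes of the IL-6 and TGF-beta pathways, Il6ra, Il6st, Tgfbr1, Tgfbr2 and Smad3. The cells were memory CD8 T cells of the mouse that carried an introduced active STAT5 (STAT5CA). Each locus was a window of 250 to 320 kb on the mouse build mm9, and its members were the peaks of either STAT5A ChIP-seq list whose centre lay inside it. The 5 windows held 35 of the 33863 peaks deposited for both libraries, 17 of 14627 in library 1 and 18 of 19236 in library 2. ChIP-seq recovers DNA crosslinked to a protein with an antibody, here against STAT5A, and a peak is a stretch where the recovered reads pile up. Peaks within 1 list that overlapped a peak of the other by at least 1 bp were called shared. The 17 and 18 peaks formed 26 distinct sites, 9 of them shared, 8 found in library 1 only and 9 in library 2 only.

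All libraries came from C57BL/6 CD8 T cells bearing the TCRP1A receptor, stimulated with the P1A tumour antigen. An active STAT5 (STAT5CA) was introduced after 24 h and the cells were cultured for another 48 h. They were then transferred into hosts and collected 70 days later from spleen and lymph nodes as memory cells, although the tissue label reads blood. The series comprised 2 STAT5A ChIP libraries and 1 input library without antibody. No peak list was available here for the input. Every library carried STAT5CA, so no cells without it could serve as controls. It was not determined whether the antibody recovered the cells' own STAT5A, the introduced STAT5CA or both. Separate animals or cultures are not stated for the ChIP libraries, so differences between them may be technical. No expression values were used, so neither the level of these genes nor the markers of the cells could be examined.

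IL-6 binds its receptor chain, encoded by Il6ra, and the complex then engages the signal-transducing chain gp130, encoded by Il6st, which activates JAK kinases and STAT3. TGF-beta binds the type II receptor, encoded by Tgfbr2, which recruits and phosphorylates the type I receptor, encoded by Tgfbr1, and that kinase in turn phosphorylates SMAD2 and SMAD3. In T cells the cytokines together favour IL-17-producing fates, and TGF-beta restrains cytotoxic differentiation. STAT5 acts downstream of IL-2 family cytokines, and IL-2 signalling through STAT5 is known to oppose IL-6 and STAT3 output in CD4 T cells. The series title names lowered IL-6 and TGF-beta1 signalling in cells with active STAT5, so the question put to these windows was where STAT5A peaks lay at the receptor and SMAD loci.

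The symbols name the windows. No mm9 annotation was used, so it was not determined whether a peak lay in a promoter, an intron, an untranslated region or outside the named gene. In the RefSeq order of protein-coding genes on GRCm38.p6, Il6ra lies between She and Atp8b2, and Il6st lies between Ankrd55 and Il31ra, which encodes a cytokine receptor chain related to gp130. Tgfbr1 lies between Col15a1 and Alg2, and Tgfbr2 between Gadl1 and Rbms3. Smad3 lies between Aagab and Smad6, which encodes an inhibitory SMAD. A window may reach into these neighbours, so a peak is given by its position and window and is not assigned to a gene.

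The sequence under the peaks could not be read for lack of an mm9 genome. The start regions of the named genes were taken from RefSeq (GRCm38.p6) instead, as 300 bases around each annotated start, 250 of them before it. All 5 genes matched, with 6 start windows, since Tgfbr1 has an alternative start. The STAT motif TTCNNNGAA, which reads the same on both strands, was in 0 of these 6 windows and in 8.30% of the 32851 RefSeq start windows of the mouse. A wider form with 4 letters between TTC and GAA was likewise in 0 of 6 and in 6.95% of all. A missing match says only that these letters are not in that window, and no peak could be placed on or off a start. The 250 bases before the start are shown for the chains of the IL-6 receptor, Il6ra and Il6st, and for Tgfbr2. Their windows held 1, 6 and 9 distinct sites, the last being the most of the 5 windows. The stretches of Tgfbr1, with 7 distinct sites in its window, and of Smad3, with 3, are not shown. Capitals mark every TTC or GAA, the outer letters of the motif, on the strand of the gene, written 5′ to 3′.
Il6ra, chromosome 3, minus strand: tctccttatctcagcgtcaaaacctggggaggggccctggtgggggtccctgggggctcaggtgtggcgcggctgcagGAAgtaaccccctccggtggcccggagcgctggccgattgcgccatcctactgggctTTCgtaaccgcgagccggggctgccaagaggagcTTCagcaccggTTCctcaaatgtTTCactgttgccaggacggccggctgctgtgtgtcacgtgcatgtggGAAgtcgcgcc
Il6st, chromosome 13, plus strand: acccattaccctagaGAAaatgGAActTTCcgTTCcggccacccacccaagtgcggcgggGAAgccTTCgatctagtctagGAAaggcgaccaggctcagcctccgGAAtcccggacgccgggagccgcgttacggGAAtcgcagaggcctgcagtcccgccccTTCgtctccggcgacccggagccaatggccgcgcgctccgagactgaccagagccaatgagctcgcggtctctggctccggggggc
Tgfbr2, chromosome 9, minus strand: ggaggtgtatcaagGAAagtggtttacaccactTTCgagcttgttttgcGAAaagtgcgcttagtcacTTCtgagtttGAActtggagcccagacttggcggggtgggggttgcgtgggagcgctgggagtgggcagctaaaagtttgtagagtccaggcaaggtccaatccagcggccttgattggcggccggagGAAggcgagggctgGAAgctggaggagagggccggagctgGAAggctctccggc
The Il6st stretch held 10 such triplets, the Tgfbr2 stretch 8 and the Il6ra stretch 6, with G and C making up 66.0%, 58.4% and 65.2% of their bases. The stretches not shown held 1 and 11 triplets at the Tgfbr1 starts and 4 at Smad3, with 74.8%, 52.8% and 69.2% G and C. The median G and C share over the same 250 bases of all RefSeq start windows was 52.4%. Triplets were not counted over all start windows, so their numbers have no background here.

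The windows differed in how many peaks they held. The Tgfbr2 window had 6 peaks in each library and 3 shared sites, and the Il6st window had 5 and 4 peaks and 3 shared sites. The Tgfbr1 window had 4 and 5 peaks and 2 shared sites, and the Smad3 window had 2 in each library and 1 shared site. The Il6ra window held no peak of library 1, no shared site and 1 peak of library 2. A shared site was thus present at 4 of the 5 loci and none was listed at the ligand-binding chain of the IL-6 receptor.

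**Figure D1:**
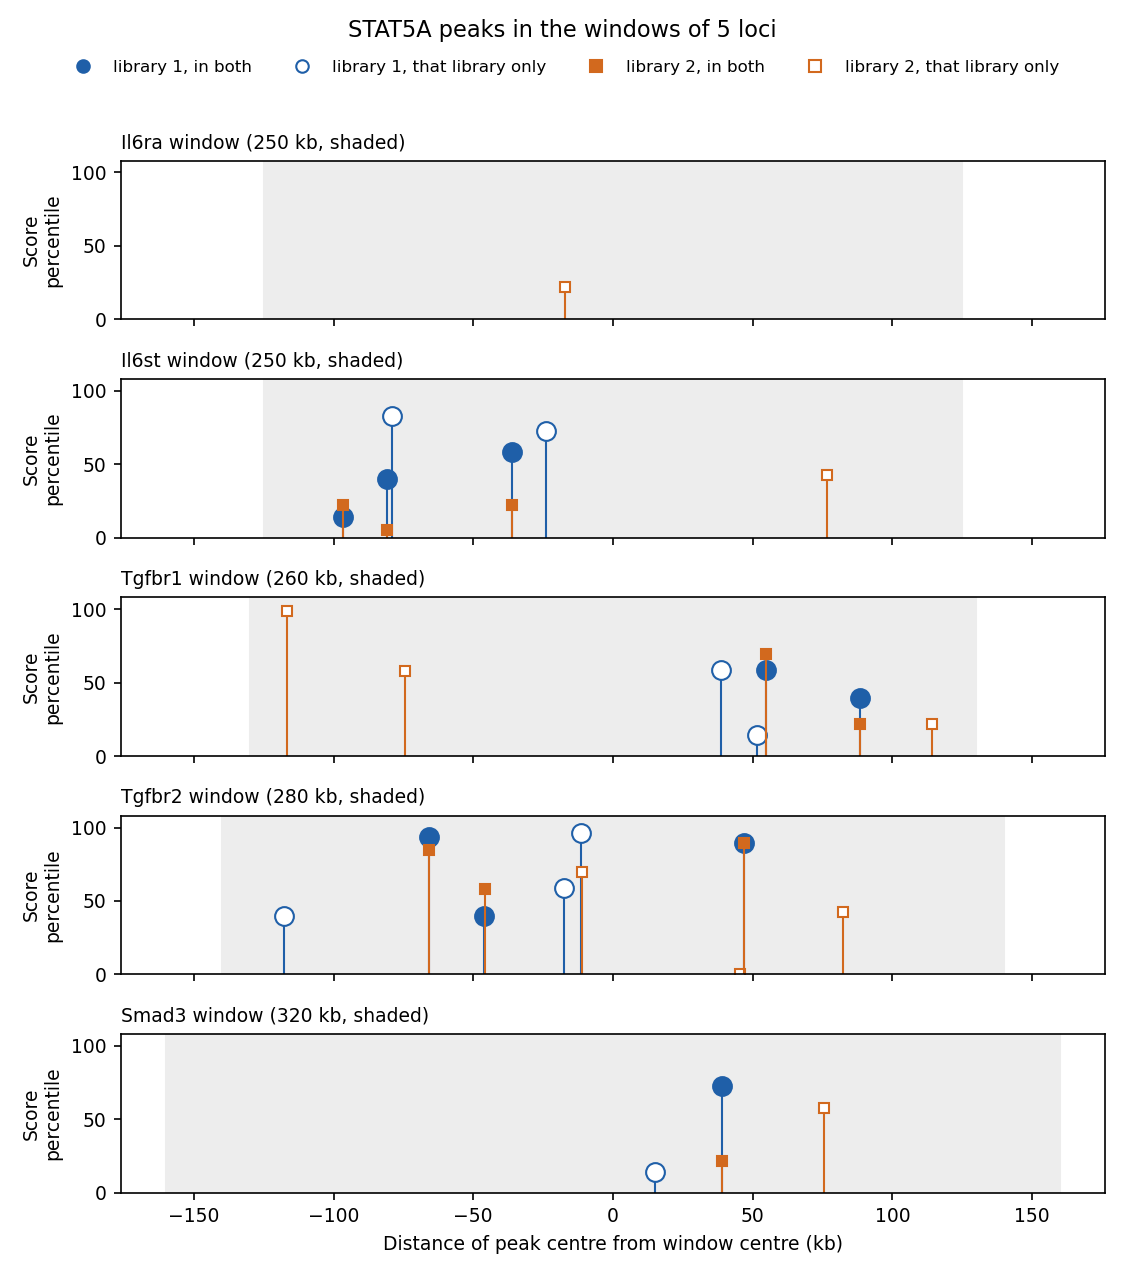
STAT5A peaks in each window, by distance of the peak centre from the window centre (kb) and by percentile of the authors' score within the list of its library. Circles are library 1 and squares library 2, filled symbols are shared sites and open symbols peaks of 1 library, and the shaded span is the window. The Tgfbr2 window has the shared pairs with the highest percentiles, and the Il6ra window holds 1 open square.

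These counts were read against tiles of the same length laid end to end along the same chromosome. Of the 250 kb tiles of chromosome 3, 46.3% held at least 1 shared site, so a window without one, like that of Il6ra, was common there. The same share was 51.8% for 250 kb tiles of chromosome 13, 46.4% for 260 kb tiles of chromosome 4, 56.4% for 280 kb tiles and 60.5% for 320 kb tiles of chromosome 9. Holding a shared site is therefore near the background for any 1 window. On chromosome 13, 2.78% of tiles had at least as many library 1 peaks as the Il6st window, 17.3% at least as many library 2 peaks and 7.07% at least as many shared sites. For the Tgfbr2 window the shares were 3.25%, 10.7% and 9.98%, and for the Tgfbr1 window 8.70%, 13.3% and 18.1%. The Smad3 window was ordinary for its length, with 59.7%, 65.3% and 60.5% of tiles at or above its counts. For Il6ra, 68.8% of tiles had at least the 1 peak of library 2.

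Over the 5 windows together, library 1 had 17 peaks where the tile means summed to 8.30, a ratio of 2.05. Library 2 had 18 peaks where they summed to 10.9, a ratio of 1.65, and the 9 shared sites compared with a sum of 4.42, a ratio of 2.04. The tiles were not matched for gene content or mappable sequence. In the windows of equal length on either side of the loci the mean counts were higher than in the tiles, 10.0 for library 1, 14.0 for library 2 and 5.50 for shared sites. The ratios to these flanks were 1.70, 1.29 and 1.64, so part of the higher count was present in the surrounding sequence too. These ratios are descriptions of 5 chosen windows and were not tested.

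**Figure D2:**
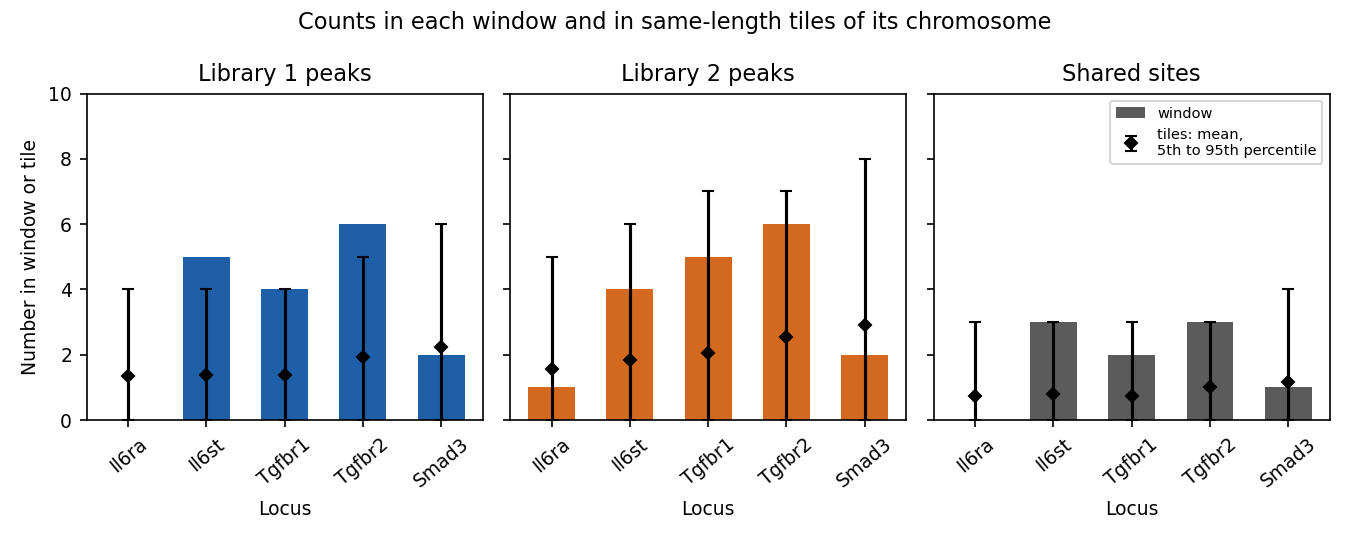
Number of library 1 peaks, library 2 peaks and shared sites in each window (bars), with the mean (diamond) and the 5th to 95th percentile (line) of same-length tiles of its chromosome. Il6st and Tgfbr2 stand above the line in library 1, with 5 and 6 peaks, and Il6ra and Smad3 lie below the tile mean in every panel.

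Il6ra encodes the chain that binds IL-6. Its window, at 89.57 to 89.82 Mb of chromosome 3, was empty in library 1. The peak of library 2 lay at 89677738 to 89677926 with a score of 10, at percentile 21.9 of its list (the share of peaks with a lower score, with ties counted in equal parts on each side). The score is the authors' own whole number per peak on a scale that is not stated, so it ranks peaks within a list and is not compared between the lists. The nearest library 1 peak was 369 kb away, at 89308640 to 89308844. The nearest library 1 peaks outside the window lay 261 kb before and 284 kb after its edges, and both were shared sites. The next library 2 peak before the window, 17.1 kb from its edge, was found in that library only. The sequence depth of the libraries is unknown, so a missing peak does not show that STAT5A was not bound.

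Il6st encodes gp130, the chain that IL-6 shares with other cytokines of its family. Its window, at 113.15 to 113.4 Mb of chromosome 13, held 3 shared sites, all with low ranks in library 2. The first lay at 113178266 to 113178470 in library 1 with a score of 23, and its partner of library 2 at 113178238 to 113178426 had a score of 10. The second lay at 113193967 to 113194171 with a score of 27, and its partner at 113193945 to 113194133 had a score of 9. The third lay at 113238642 to 113238846 with a score of 31, and its partner at 113238660 to 113238848 had a score of 10. Their library 2 percentiles were 21.9, 5.38 and 21.9, and 75.6% to 94.1% of the 7877 shared sites of the genome ranked higher by mean percentile over both libraries.

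Among the library 1 peaks of the Il6st window, those found in that library only had the highest scores. They lay at 113195851 to 113196055 with a score of 39 (percentile 82.5) and at 113250877 to 113251081 with a score of 35 (percentile 72.6). The first was 1.91 kb from the nearest library 2 peak, which was the partner of the shared site beside it, and the second was 12.2 kb from one. Library 2 alone had a peak at 113351466 to 113351654, 101 kb from any library 1 peak. Its score of 11 was the highest of library 2 in the window. All 5 library 1 peaks, which spanned 72.8 kb, and the 3 shared sites lay before the window centre, and that library 2 peak lay after it. The next peaks beyond the window included a site 74.6 kb after its edge found in both libraries, with scores of 31 and 23, the latter at percentile 98.3 of library 2.

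Tgfbr2 encodes the type II receptor, the chain that binds TGF-beta first. Its window, at 115.9 to 116.18 Mb of chromosome 9, held the highest-ranked shared sites of the 5 loci. The site at 116086818 to 116087022 had a score of 43 in library 1, and its partner at 116086828 to 116087016 had a score of 17, with centres 2 bp apart. Both scores were at percentile 89.2 of their list, and 4.51% of all shared sites ranked higher. The site at 115973946 to 115974150 had a score of 47 (percentile 93.5), and its partner at 115973966 to 115974154 had a score of 16 (percentile 84.6), with 4.96% of shared sites ranked higher. The third shared site, at 115993916 to 115994120, had scores of 27 and 12 with its partner at 115993976 to 115994164, and 60.8% of shared sites ranked higher. The first and second of these were the top 2 of the 9 shared sites in the windows, at ranks 356 and 392 of 7877.

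The highest score of library 1 in any of the windows also belonged to the Tgfbr2 window. The peak at 116028358 to 116028562 had a score of 51 (percentile 96.2) and was not shared. A library 2 peak lay beside it at 116028868 to 116029056 with a score of 13 (percentile 69.5). The edges of these peaks were 305 bp apart and their centres 502 bp, so they also stayed unshared when centres within 500 bp were accepted. The other peaks of library 1 alone lay at 115922299 to 115922503 with a score of 27 and at 116022326 to 116022530 with a score of 31. Library 2 alone had a peak at 116085428 to 116085616 with a score of 8, the lowest of its list, 1.40 kb from the shared site at 116086828, and a peak at 116122104 to 116122292 with a score of 11. Before the window, a library 1 peak lay 5.87 kb and a library 2 peak 16.9 kb from its edge, and neither was shared. The nearest peaks after the window formed a shared site 26.1 kb from its edge, with scores of 35 and 12.

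Tgfbr1 encodes the type I receptor kinase. Its window, at 47.27 to 47.53 Mb of chromosome 4, held 2 shared sites. The site at 47454716 to 47454920 had a score of 31 in library 1, and its partner at 47454781 to 47454969 had a score of 13, both above the median of their list, with 35.2% of shared sites ranked higher. The site at 47488236 to 47488440 had a score of 27, and its partner at 47488217 to 47488405 had a score of 10, with 84.4% ranked higher. All 4 library 1 peaks lay after the window centre and spanned 50.0 kb, whereas the library 2 peaks spread over 231 kb. The peaks of library 1 alone lay at 47438413 to 47438617 with a score of 31 and at 47451569 to 47451773 with a score of 23. The second of these was 3.20 kb from the library 2 partner of the first shared site.

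The highest library 2 score of the 5 windows lay near the first edge of the Tgfbr1 window and was not shared. This peak, at 47283362 to 47283550, had a score of 24 (percentile 98.8), and the nearest library 1 peak was 14.4 kb away. That library 1 peak lay just outside the window, 0.922 kb before its edge, at 47268977 to 47269181 with a score of 67 (percentile 99.4). It was shared with a library 2 peak at 47268958 to 47269146 with a score of 12 (percentile 57.9). The library 1 peak of this site, but not its library 2 partner, scored above every peak of its own library inside the windows. The edge of the window alone kept the site out of the counts. Library 2 alone also had peaks at 47325542 to 47325730 with a score of 12 and at 47514077 to 47514265 with a score of 10.

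Smad3 encodes the SMAD protein that the activated type I receptor phosphorylates and that carries the signal to the nucleus. Its window, at 63.39 to 63.71 Mb of chromosome 9, was the longest and held 1 shared site. The site lay at 63589125 to 63589329 with a score of 35 in library 1 (percentile 72.6), and its partner at 63589088 to 63589276 had a score of 10 (percentile 21.9). Library 1 alone had a peak at 63564908 to 63565112 with a score of 23, and library 2 alone had a peak at 63625450 to 63625638 with a score of 12. A further library 1 peak, at 63710084 to 63710288 with a score of 27, lay 0.186 kb past the window and was not shared. The nearest library 2 peak after the window, 25.7 kb from its edge, had a score of 18 (percentile 92.6) and was not shared either. Before the window, the nearest peaks formed a shared site 170 kb from its edge, with scores of 39 and 15. The Smad3 and Tgfbr2 windows share chromosome 9.

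The shared fraction of the window peaks had an interval that held the fraction of the whole list in each library. In library 1, 9 of 17 were shared, or 52.9% (95% Wilson interval 31.0 to 73.8%, which covers counting error only), beside 53.9% of the whole list. In library 2, 9 of 18 were shared, or 50.0% (29.0 to 71.0%), beside 40.9% of the whole list. Shared partners lay close together, with a median of 30.0 bp between centres and a range of 2 to 57 bp, beside a median of 27.0 bp over all 7877 shared sites. Peaks of 1 library alone lay at distances from 502 bp to 369 kb. In library 1, 4 of 8 had no library 2 peak within 10 kb, beside 84.0% of all 6750 peaks found in that library only. In library 2, 7 of 9 had no library 1 peak within 10 kb, beside 85.9% of all 11359.

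**Figure D3:**
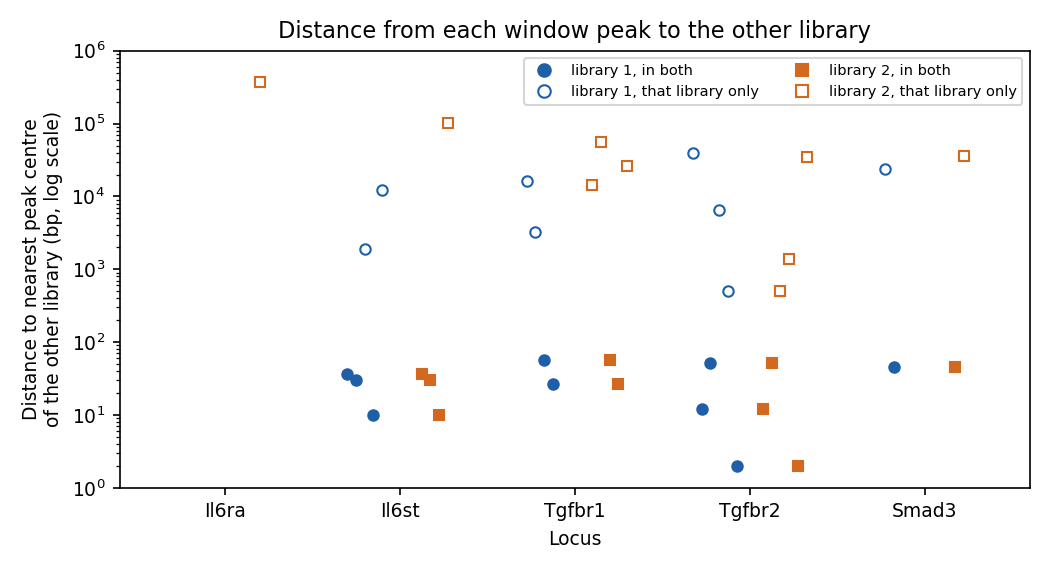
Distance from each window peak to the nearest peak centre of the other library (bp, log axis), by locus. Circles are library 1 and squares library 2, filled symbols are shared sites, and open symbols are peaks of 1 library. The shared sites lie between 2 and 57 bp, and the closest unshared pair, in the Tgfbr2 window, lies at 502 bp.

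Scores in the windows lay around the middle of each list. In library 1 the window peaks scored 23 to 51 with a median of 31, and 10 of 17, or 58.8% (36.0 to 78.4%), were above the list median of 27, beside 49.4% of the whole list. In library 2 they scored 8 to 24 with a median of 11, and 8 of 18, or 44.4% (24.6 to 66.3%), were above the list median of 11, beside 48.8% of the whole list. Shared peaks and peaks of 1 library alone had medians of 31 and 31 in library 1 and of 10 and 11 in library 2. Of the 9 shared sites, 3 were above the list median in both libraries, near the background of 33.8% of all 7877 shared sites. The median of the mean percentile was 47.2 for the 9 sites and 54.5 for all shared sites. The 3 were the sites at 115973946 and 116086818 in the Tgfbr2 window and the site at 47454716 in the Tgfbr1 window, and no site of the Il6st or Smad3 window was among them.

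**Figure D4:**
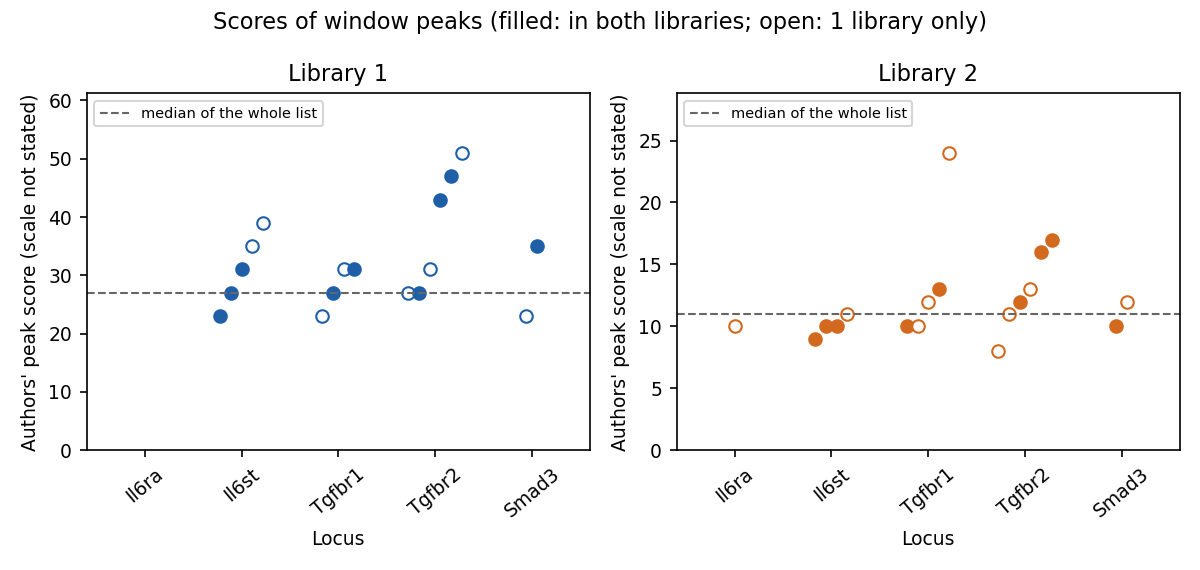
The authors' score of every window peak by locus, library 1 on the left and library 2 on the right, with the median of each whole list as a dashed line (27 and 11). Filled symbols are shared sites and open symbols are peaks of 1 library. The highest scores, 51 in library 1 and 24 in library 2, are open, and the 4 library 2 peaks of Il6st lie at or below the dashed line.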

How the data were processed

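STAT5A ChIP-seq was deposited as 1 peak list for each of 2 libraries, with chromosome, start, end and a score that is the authors' own, a whole number without a stated scale. The submitters' processing notes name HOMER and mm9, with role, version, threshold, control and filters not given in the sources used here. Names of the files differ in a suffix that no source explains. Read totals were not used, so depth is unknown. Positions are counted from 1.

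Windows, loci and alternatives were chosen with earlier results of these data known. All peaks with a centre in a window were named. The nearest peaks outside each window were located in each library, and only some of them are given. Peaks were shared when they overlapped by at least 1 bp. Tiles ran from the first peak of either list on a chromosome, and only whole tiles were kept. Under the main settings, 95% Wilson intervals are given for the shared fraction of the window peaks and for their share above the list median. The other shares carry no interval, including those from small counts. The overlap function was checked under the 1 bp rule only, on simulated peaks too far apart to overlap except where planted. Crowded peaks, near misses and the other overlap rules were not part of that check. The libraries form 1 group, so nothing was tested between conditions. Motifs under peaks, gene structure and the other pathway genes were not analysed here for lack of an mm9 genome. Python 3.11.15, numpy 2.4.6, pandas 2.3.3, scipy 1.17.1 and matplotlib 3.10.9 were used.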

Additional observations from a re-analysis of the deposited data

How the results depend on the processing

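The 9 shared sites stayed 9 with centres within 100 bp, centres within 500 bp or overlap of 50% of both widths, so the shared fractions of 52.9% and 50.0% did not move with the overlap rule. Windows widened by 50 kb on each side gave 11 shared sites, and windows narrowed by 50 kb gave 6. Restricted to peaks scoring above their list's median, there were 3 shared sites among 10 library 1 peaks and 8 library 2 peaks, and the shared fraction was 30.0% and 37.5%, beside 36.8% and 28.3% of the whole lists under that setting; fewer peaks enter by construction. The 26 distinct sites were 17 to 18 with 1 library alone. Against the flanking windows the ratios were 1.70, 1.29 and 1.64 for library 1, library 2 and shared sites, against 2.05, 1.65 and 2.04 for tiles; the cause was not tested. Tiles of all autosomes, chosen after seeing the data, gave 2.13, 1.68 and 2.05. Of 40 recounts of peaks in a single window and library, 13 differed by a factor above 1.5 or fell to 0, all under the score or window settings. No paired analysis was possible because the ChIP libraries form a single group. Without input peaks or depth, low-scored sites cannot be told apart from background.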
